A study of Mus musculus with 30 samples.

Results

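The genes that make, store and break down serotonin and related monoamines were followed in mouse βTC3 cells, an insulin-producing line from a pancreatic islet tumour. The members were 8 genes chosen by name (Tph1, Tph2, Ddc, Slc18a1, Slc18a2, Maoa, Maob and Gch1) out of 39017 in the count table, and all 8 were found. The low-count filter kept 15627 genes, among them 7 of the 8 members; Slc18a2 was the exception. Tph1 and Ddc had been singled out because their counts were higher with activin B, so the activin B responses below describe the members and were not tested for them.

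Poly(A) RNA was sequenced from 5 lines that carried doxycycline-inducible constructs, with 3 libraries in each of 10 groups. All 30 cultures, controls included, received 1 µg/ml doxycycline (DOX) for 24 hours, and 1 group of each line also received activin B at 50 ng/ml for 24 hours. Activin B, a TGF-β family ligand, acts on SMAD2 and SMAD3 through receptors that include ALK7, the product of Acvr1c. The labels name control cells with plasmid PB-33, PB-33 ALK7 and PB-33 ALK7-DN (the dominant-negative receptor), and knock-down lines with PB-31 ALK7-sh2 and PB-31 ALK7-sh1/2, called control, ALK7, ALK7-DN, sh2 and sh1/2 here. Both hairpin lines were thus compared with a control on another plasmid backbone, and a PB-31 line without a hairpin was not analysed here. Whether a line was a clone or a pool, and which promoter drove the construct, is not given in the sources used here. Libraries were replicate wells, so the p-values reflect the spread between wells, which may be technical, and no wider variation. Batch 2 of the labels holds the 3 activin B libraries of ALK7-DN and the 3 DOX libraries of sh2, and batch 1 the other 24. In those 2 lines batch and treatment cannot be told apart.

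Serotonin is made from tryptophan in a pair of steps. Tryptophan hydroxylase, Tph1 in most peripheral tissues and Tph2 in neurons, is rate-limiting and needs tetrahydrobiopterin, whose synthesis starts with Gch1. Aromatic amino acid decarboxylase, Ddc, completes serotonin and also makes dopamine. The vesicular monoamine transporters Slc18a1 (VMAT1) and Slc18a2 (VMAT2) load amines into granules, and the monoamine oxidases Maoa and Maob break them down. Beta cells store serotonin beside insulin, and in pregnancy their Tph1 is known to be induced through the prolactin receptor.

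The transcription start regions of Tph1 and Ddc are shown because these were the members whose counts were higher with activin B in every line. RefSeq lists windows for 6 of the 8 members, 8 windows in all, in build GRCm38.p6 (mm10); Slc18a1 and Maob were not matched. For each gene the 250 bases before both listed starts are given 5′ to 3′ on the gene's own strand. Capitals mark the SMAD box, GTCT or its reverse complement AGAC.

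Tph1, start 1, chr7:46672538-46672787, minus strand: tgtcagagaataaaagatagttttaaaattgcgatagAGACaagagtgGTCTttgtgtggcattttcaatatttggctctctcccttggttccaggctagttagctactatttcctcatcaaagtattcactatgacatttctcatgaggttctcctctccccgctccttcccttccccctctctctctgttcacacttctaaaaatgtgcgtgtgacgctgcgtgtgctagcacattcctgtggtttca
Tph1, start 2, chr7:46667378-46667627, minus strand: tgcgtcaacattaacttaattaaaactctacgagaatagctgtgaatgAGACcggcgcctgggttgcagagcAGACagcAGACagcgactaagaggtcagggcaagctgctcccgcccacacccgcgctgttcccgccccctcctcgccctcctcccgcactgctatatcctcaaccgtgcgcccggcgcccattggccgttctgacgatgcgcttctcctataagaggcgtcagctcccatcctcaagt
Ddc, start 1, chr11:11898145-11898394, minus strand: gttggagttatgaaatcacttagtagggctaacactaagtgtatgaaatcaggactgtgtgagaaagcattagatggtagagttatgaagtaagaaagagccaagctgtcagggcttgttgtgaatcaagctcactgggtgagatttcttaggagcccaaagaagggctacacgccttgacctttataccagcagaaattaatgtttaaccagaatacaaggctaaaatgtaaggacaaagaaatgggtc
Ddc, start 2, chr11:11890409-11890658, minus strand: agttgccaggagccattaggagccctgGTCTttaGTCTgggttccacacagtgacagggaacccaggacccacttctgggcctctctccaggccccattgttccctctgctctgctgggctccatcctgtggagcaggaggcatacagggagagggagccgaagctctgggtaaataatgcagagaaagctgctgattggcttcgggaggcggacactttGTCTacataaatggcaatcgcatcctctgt

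The Tph1 windows held 2 and 3 SMAD boxes and the Ddc windows 0 and 3. All 32851 listed promoter windows of the same 250 bases had a median of 2, and 82.9% held at least 1. The Gch1, Tph2, Slc18a2 and Maoa windows held 3, 2, 1 and 0. A longer form that contains the box, GTCTG on either strand, occurred 2 times in the second Tph1 window and 1 time in the second Ddc window (42.2% of all windows held it). A shorter part of the cAMP response element, TGACG on either strand, occurred 1 time in the first and 3 times in the second Tph1 window. It was in neither Ddc window, 1 time each in the Gch1 and Maoa windows, and in 17.8% of all windows. The full element TGACGTCA, which contains it (1.55% of all windows), and the SMAD palindrome GTCTAGAC, which contains the box (0.167%), were found in none of the 8 member windows. These matches describe letters only. The counts are per gene and do not separate the starts.

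Library totals ran from 18904884 to 34740789 counts. Acvr1c, the targeted gene, stood at 165 CPM (counts scaled to the library total) in control cells with DOX alone, at 68.5 in sh2 (batch 2) and at 55.3 in sh1/2. With DOX alone it stood at 154 in the line labelled ALK7 and 161 in the line labelled ALK7-DN, so neither expression construct was visible in its counts. With activin B, within batch 1, Acvr1c stood at 101 CPM in control, 42.7 in sh2 and 26.7 in sh1/2 cells. It was lower with activin B than with DOX alone in all 5 lines (log2 fold change -0.59 to -1.05, edgeR adjusted p at most 0.000157). All 10 beta cell markers checked were detected, with a summed level of 19340 to 22660 CPM over the DOX libraries of the control, ALK7, ALK7-DN and sh2 lines and 13880 to 17650 with activin B. In sh1/2 the sums were 12240 to 16680 and 11590 to 13290. The sums were led by Ins2 (4093 to 11080 CPM over all libraries), while Mafa (2.57 to 27.9) and Slc2a2 (0.695 to 6.06) added little. Of 8 mast cell markers, another cell type rich in serotonin, Ms4a2 was at 0 and 6 had at most 1 count in any library, while Kit, which beta cells can express, stood at 4.68 to 8.51 CPM. Of 5 enterochromaffin markers, Tac1, Lmx1a, Trpa1 and Reg4 had at most 9 counts in any library, while Gpr112 stood at 1.70 to 5.93 CPM.

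Levels per exon length (RPKM, reads scaled to gene length and library total) put Maob far above the other members in control cells with DOX alone, at 218 RPKM. Gch1 followed at 11.9, Maoa at 7.39, Slc18a1 at 3.35, Ddc at 1.95, Tph2 at 0.231, Tph1 at 0.113 and Slc18a2 at 0.00529. With activin B the order in control cells was Maob (145), Gch1 (11.5), Maoa (7.55), Ddc (7.35), Slc18a1 (2.08), Tph1 (1.10), Tph2 (0.125) and Slc18a2 (0.00823). Maoa and Ddc did not differ there beyond their SDs of 1.42 and 0.434. Tph2 was above Tph1 per length with DOX alone and below it with activin B, and in neither group did the libraries of these genes overlap. With DOX alone their counts were alike (52 for Tph1 and 48 for Tph2, or 0.698 and 0.664 CPM). The order there came from the exon lengths used, 6172 bases for Tph1 and 2879 for Tph2. All values are RNA levels in bulk cultures, where fewer cells that express a gene and less RNA per cell cannot be told apart.

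Tph1 (chromosome 7, 46644641 to 46672537, minus strand, protein-coding) was barely counted with DOX alone. In control cells its level was 0.673, 0.871 and 0.549 CPM with DOX alone and 6.72, 6.60 and 7.12 with activin B. In ALK7 cells it was 0.829, 0.770 and 0.904 against 8.41, 8.51 and 8.97 CPM. In ALK7-DN cells it was 0.340, 0.369 and 0.595 against 5.17, 5.33 and 5.49 CPM. Every library with activin B was above every library with DOX alone in these lines. The sh2 line had 1.13, 0.622 and 0.764 CPM with DOX alone and 6.62, 6.32 and 6.73 with activin B. The sh1/2 line had 1.41, 1.18 and 1.23 against 4.94, 5.28 and 5.92 CPM. The highest of the 15 DOX libraries thus lay at 1.41 CPM and the lowest with activin B at 4.94. The log2 fold changes, given without a test, were 3.26 ± 0.17 (SE) in control, 3.37 ± 0.17 in ALK7, 3.61 ± 0.18 in ALK7-DN, 2.96 ± 0.17 in sh2 and 2.07 ± 0.16 in sh1/2 cells. Counting error was widest with DOX alone, where 10 to 39 counts per library stood behind these levels, against 152 to 265 with activin B. In control, ALK7, ALK7-DN and sh2 cells the SEs above were smaller than counting error alone would give. Leaving out single libraries moved the log2 fold changes to between 3.12 and 3.47 in control cells, 3.45 and 3.90 in ALK7-DN and 2.77 and 3.24 in sh2.

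Ddc (chromosome 11, 11814101 to 11898144, minus strand, protein-coding) was about an order of magnitude more abundant in CPM than Tph1 with DOX alone. In control cells it stood at 9.19, 9.37 and 7.52 CPM with DOX alone and at 35.0, 31.9 and 31.4 with activin B. In ALK7 cells it stood at 9.51, 9.62 and 10.4 against 36.9, 36.4 and 38.4 CPM. In ALK7-DN cells it stood at 9.08, 10.6 and 8.61 against 31.5, 34.7 and 35.1 CPM. These 3 lines and sh2, with 9.83, 10.4 and 11.2 against 35.7, 35.0 and 36.6 CPM, occupied the same pair of ranges. The sh1/2 line stood apart with 34.9, 34.6 and 40.8 CPM under DOX alone and 98.0, 92.2 and 100 with activin B. Its DOX libraries overlapped the range of control cells with activin B. The log2 fold changes were 1.91 ± 0.09, 1.92 ± 0.09, 1.84 ± 0.08 and 1.78 ± 0.09 in control, ALK7, ALK7-DN and sh2 cells and 1.4 ± 0.08 in sh1/2 cells.

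**Figure D1:**
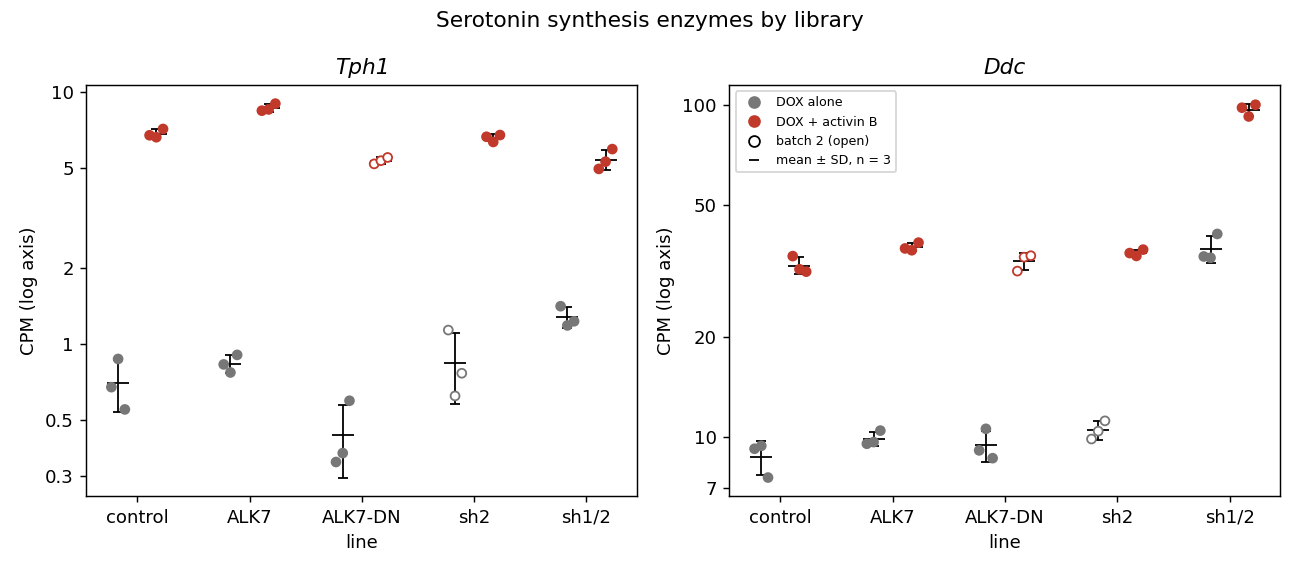
CPM of Tph1 (left) and Ddc (right) in each library on a log axis, by line, with DOX alone in grey and with activin B in red; open points are batch 2, and bars show the mean and SD of 3 libraries. Libraries with activin B lie above those with DOX alone in all 5 lines, and Ddc in sh1/2 cells with DOX alone (34.6 to 40.8 CPM) lies at the level of the other lines with activin B.

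The neuronal form of the hydroxylase, unlike Tph1, was not higher with activin B. Tph2 (chromosome 10, 115078641 to 115185022, minus strand) had 5 to 22 counts per library in the whole series. In control cells it stood at 0.625, 0.523 and 0.845 CPM with DOX alone and 0.349, 0.343 and 0.389 with activin B, without overlap. The ALK7 line had 0.631, 0.770 and 0.747 against 0.382, 0.513 and 0.290 CPM, also without overlap, and the libraries of the other 3 lines overlapped. Its log2 fold changes were -0.87 ± 0.33 in control, -0.84 ± 0.31 in ALK7, -0.33 ± 0.31 in ALK7-DN, -0.49 ± 0.34 in sh2 and -0.84 ± 0.32 in sh1/2 cells. Without single libraries the Tph2 values ranged more widely, for example from -0.99 without sh2 activin B replicate 2 to -0.25 without sh2 activin B replicate 1, and from -1.23 to -0.53 in sh1/2 cells without activin B replicate 2 or 3.

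The cofactor enzyme Gch1 (chromosome 14, 47153895 to 47189413, minus strand) hardly differed with activin B. Control cells had 75.8, 73.6 and 73.2 CPM with DOX alone and 75.1, 72.6 and 68.5 with activin B. Its log2 fold changes lay between -0.05 and 0.00 in 4 lines, each with an SE of 0.07, and the libraries overlapped in all 4. The sh1/2 line had 89.0, 90.7 and 79.8 against 94.5, 102 and 92.7 CPM, a log2 fold change of 0.15 ± 0.07.

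The vesicle transporter Slc18a1 (chromosome 8, 69037711 to 69089235, minus strand) was lower with activin B. Control cells had 18.5, 17.4 and 18.4 CPM with DOX alone and 12.04, 10.3 and 11.3 with activin B. The ALK7 line had 18.8, 16.4 and 19.3 against 10.2, 8.35 and 10.02 CPM. The groups did not overlap in any of the 5 lines, although sh1/2 cells kept 14.4, 14.2 and 14.9 CPM with activin B, against 19.3, 18.6 and 19.99 with DOX alone. The log2 fold changes were -0.69 ± 0.08 in control, -0.93 ± 0.08 in ALK7, -0.56 ± 0.07 in ALK7-DN, -0.57 ± 0.07 in sh2 and -0.41 ± 0.07 in sh1/2 cells.

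The other vesicle transporter, Slc18a2 (chromosome 19, 59260896 to 59296012, plus strand), had 50 counts in all 30 libraries. Of these, 34 were in the ALK7 line, with 5, 5 and 6 counts in the libraries with DOX alone and 7, 6 and 5 with activin B. The other 24 libraries held 16 counts together and 0 to 2 each, so that the ALK7 libraries lay above all others. Exact Poisson 95% intervals, which cover counting error only, were taken for the total over the 6 libraries of each line. They were 23.5 to 47.5 counts in ALK7, 2.2 to 13.1 in control and 0.619 to 8.77 in ALK7-DN cells. In sh2 and sh1/2 cells they were 1.62 to 11.7 and 0.242 to 7.22 counts. In sh1/2 cells with DOX alone all 3 libraries were at 0, which allows up to 0.0382 CPM over the group (3 counts), and in ALK7-DN cells with activin B up to 0.0327 CPM. Tested without the low-count filter, the ALK7 line differed from control by 2.69 ± 0.90 with DOX alone (edgeR, adjusted p = 0.262) and by 2.02 ± 0.78 with activin B (adjusted p = 0.265), which did not pass. Slc18a2 shares 111 exonic bases with the antisense gene Gm29261, and the strand setting of the counting is not given in the sources used here.

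Monoamine oxidase B was the most abundant member in every group. Maob (chromosome X, 16709282 to 16817366, minus strand) stood at 582, 633 and 612 CPM in control cells with DOX alone and at 388, 420 and 403 with activin B. In ALK7 cells it stood at 572, 566 and 583 against 322, 292 and 321 CPM. Neither pair of groups overlapped, and the ALK7 libraries with activin B were the lowest of all 30. In ALK7-DN cells it stood at 620, 663 and 688 against 446, 451 and 477 CPM. In sh2 cells it stood at 580, 585 and 629 against 382, 382 and 408 CPM. In sh1/2 cells it stood at 716, 649 and 769 against 455, 422 and 439 CPM. The log2 fold changes were -0.59, -0.52, -0.62 and -0.70 in control, ALK7-DN, sh2 and sh1/2 cells and -0.88 in ALK7 cells, each with an SE of 0.06. With a replicate block and a correction for GC content the sh1/2 value was -0.55.

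Its neighbour Maoa lies 21463 bases away on the other strand (chromosome X, 16619698 to 16687818, plus strand) and stood at similar levels with and without activin B in 4 lines. Control cells had 27.5, 31.8 and 33.0 CPM with DOX alone and 27.7, 38.3 and 28.4 with activin B, and the libraries overlapped in control, ALK7, ALK7-DN and sh2 cells. In sh1/2 cells Maoa had 37.3, 33.1 and 42.7 CPM with DOX alone and 29.97, 29.2 and 27.1 with activin B, a log2 fold change of -0.39 ± 0.10. The 3 highest of the 30 libraries, sh1/2 DOX replicates 3 and 1 and control activin B replicate 2, were 3 in which GC-rich genes were low (Spearman correlation of the deviation from the group mean with gene GC content, across genes, -0.75, -0.65 and -0.82). In sh1/2 DOX replicate 2, at rank 5 with 33.1 CPM, the correlation was 0.81. ALK7 and ALK7-DN activin B replicate 3, at -0.64 and -0.67, had 31.3 and 32.8 CPM. Maoa has the lowest GC content of the members (40.4%). With a replicate block and a GC correction the sh1/2 response of Maoa was -0.11, and without the 3 highest libraries it was -0.20. The part of GC content in the Maoa levels was not tested.

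**Figure D2:**
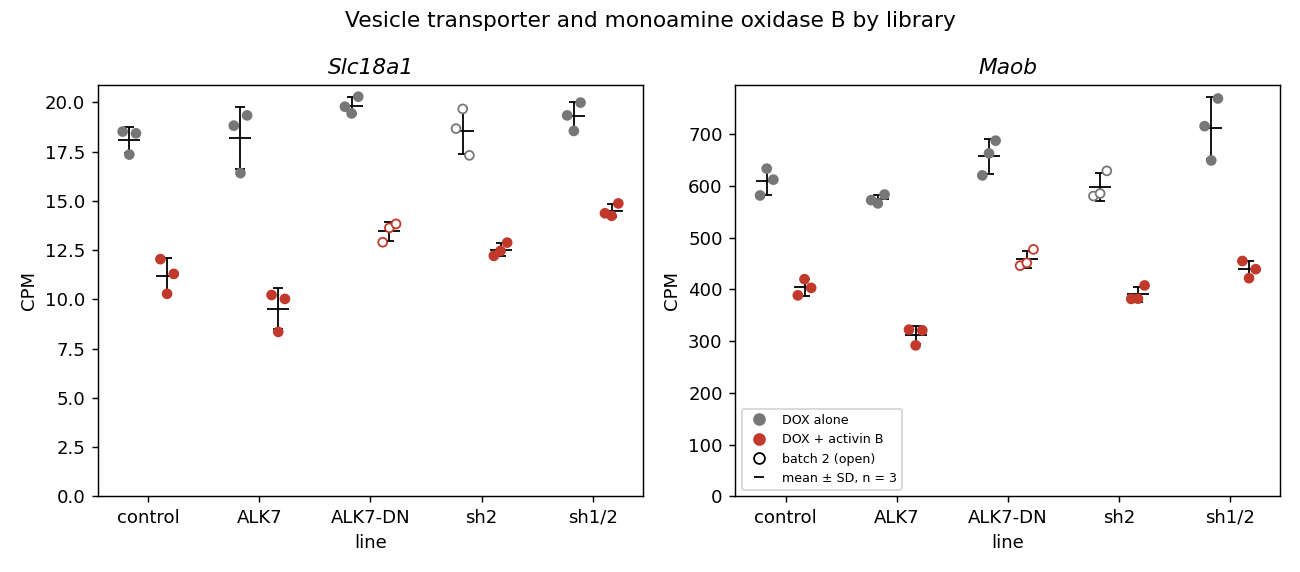
CPM of Slc18a1 (left) and Maob (right) in each library, by line, with axes from 0; grey points are DOX alone, red points activin B, open points batch 2, and bars the mean and SD of 3 libraries. Both genes are lower with activin B in all 5 lines without overlap, and Maob is lowest in the ALK7 line with activin B (292 to 322 CPM).

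In control cells 5 of the 8 members had libraries that did not overlap between DOX alone and activin B: Tph1 and Ddc higher, and Tph2, Slc18a1 and Maob lower. Over all 15627 genes tested that share was 32.1%, and 20.3% passed the edgeR test. The same split by direction held in the ALK7 line (43.9% of all genes without overlap). In ALK7-DN and sh2 cells it held without Tph2 (32.4% and 38.2%). In sh1/2 cells Tph2 overlapped too, while Maoa was lower and Gch1 higher without overlap (36.3%). Since Tph1 and Ddc were chosen on this contrast, nothing is read from these shares. The median log2 fold change over all genes lay within 0.011 of 0 in each line, and in control cells 90% of genes changed by less than 0.67. The neuron markers ran from 318.6 to 386.8 CPM in sum in control cells with DOX alone and from 329.3 to 506.4 with activin B, led by Tubb3, and in ALK7 cells from 320.7 to 336.2 and from 510.9 to 643.9. Their part in the members' levels, and that of the lower beta cell marker sum, was not tested.

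**Figure D3:**
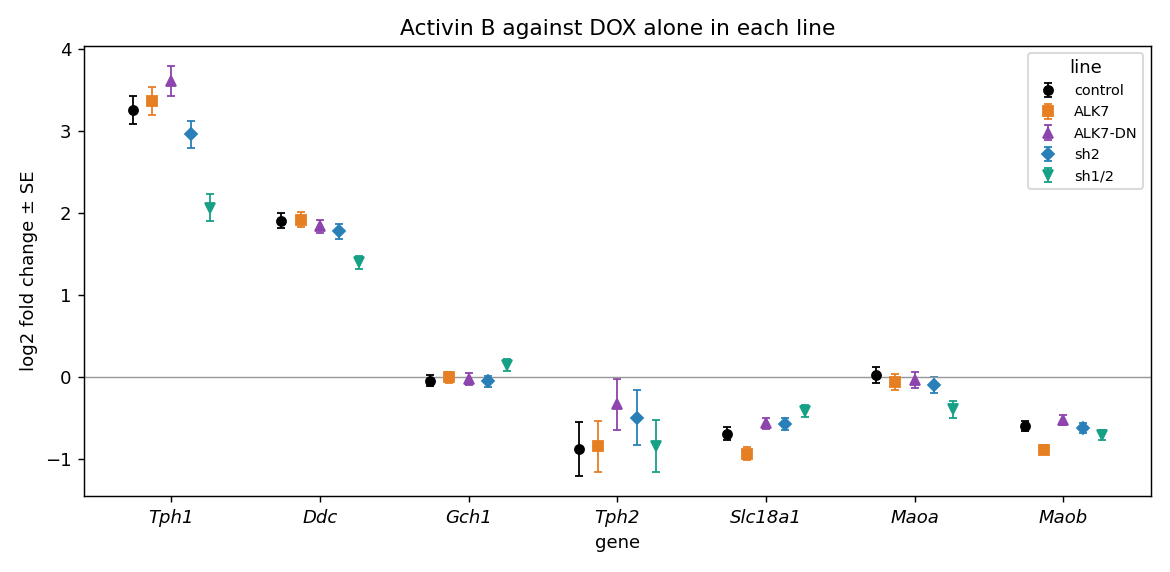
Log2 fold change of activin B against DOX alone for the 7 members that passed the low-count filter, in each of the 5 lines, with bars of 1 SE. Tph1 (2.07 to 3.61) and Ddc (1.4 to 1.92) lie above 0 in every line, Slc18a1, Maob and Tph2 below it, and Maoa and Gch1 near it, apart from Maoa in sh1/2 cells at -0.39.

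The next comparison asked whether the lines differed from control cells at the same treatment. This is not the contrast on which Tph1 and Ddc were singled out, but it uses the same libraries. All of these comparisons share the same 3 control libraries per treatment. The sh1/2 line differed most. With DOX alone, 5 of the 7 members tested were higher in sh1/2 than in control cells and 0 were lower, beside 38% of all genes called in either direction and 19.4% called higher. Ddc rose by 2.08 ± 0.09 (log2, SE, edgeR adjusted p = 8.64e-15), which is 4.22-fold, from 8.69 ± 1.02 to 36.8 ± 3.50 CPM (SD, n = 3). Tph1 rose by 0.85 ± 0.19 (edgeR adjusted p = 0.00258), or 1.80-fold, and the libraries did not overlap. Smaller rises were called for Maoa (0.29 ± 0.10, adjusted p = 0.0304), Maob (0.22 ± 0.06, adjusted p = 0.00394) and Gch1 (0.22 ± 0.07, adjusted p = 0.0196) by the same test. Slc18a1 was at 0.09 ± 0.07 and Tph2 at -0.08 ± 0.31.

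The Ddc difference kept its call under all 13 alternative settings run, between 1.98 and 2.14. The Tph1 call ended only without the 3 libraries low on GC-rich genes (0.73). That leaves sh1/2 DOX with 1 library, which is assumed to vary like the other groups. The library kept, sh1/2 DOX replicate 2, deviated from its group mean the other way with GC content (Spearman 0.81). It differed from replicates 1 and 3 by 57.3 and 51.4 chi-square per degree of freedom, against 12.8 between replicates 1 and 3. Without the same 3 libraries the Maoa (0.10) and Maob (0.09) calls ended too. The Maoa call also ended without control DOX replicate 1 (0.22, adjusted p = 0.149), sh1/2 DOX replicate 1 (0.30, adjusted p = 0.0640) or sh1/2 DOX replicate 3 (0.19, adjusted p = 0.203). The Gch1 call ended without control DOX replicate 2 (0.22, adjusted p = 0.0505) or 3 (0.21, adjusted p = 0.0591) and without sh1/2 DOX replicate 1 (0.20, adjusted p = 0.0741) or 2 (0.19, adjusted p = 0.0583). Not every setting that ended a call is named here. Of the 13 alternatives, 7 kept the Maoa call, 11 the Maob call and 8 the Gch1 call. The sh1/2 DOX libraries were also the ones with the lower beta cell marker sum given above, and their enterochromaffin marker sum was 4.20 to 6.31 CPM against 2.16 to 3.09 in control cells, of which Tac1, Lmx1a, Trpa1 and Reg4 were near 0. The part of either in these results was not tested.

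With activin B, 3 of the 7 members were higher in sh1/2 than in control cells and 0 were lower, beside 35.2% of all genes called and 16.9% called higher. Ddc rose by 1.56 ± 0.08 (edgeR adjusted p = 3.39e-13), or 2.95-fold, to 96.7 ± 4.06 CPM. Gch1 rose by 0.42 ± 0.07 (adjusted p = 8.42e-05) and Slc18a1 by 0.37 ± 0.07 (adjusted p = 0.00043). These calls held under all 13 alternatives. Tph1 stood at 5.38 ± 0.498 CPM against 6.81 ± 0.271 in control cells, a log2 fold change of -0.34 ± 0.14 that did not pass (adjusted p = 0.0601) although the libraries did not overlap. Maob was at 0.12 ± 0.06 (adjusted p = 0.116), and at 0.22 (adjusted p = 1.87e-06) with a replicate block and a GC correction, and Maoa at -0.13 ± 0.10 (adjusted p = 0.359).

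The sh2 line, whose Acvr1c was also reduced, was compared within batch 1 only with activin B. None of the 7 members passed there, 1 had an unadjusted p under 0.05 (Slc18a1, 0.16 ± 0.08), and DESeq2 called 0, beside 9.23% of all genes called by edgeR. Ddc differed from control by 0.13 ± 0.08 with a 95% interval of -0.03 to 0.28, against 1.4 to 1.72 for sh1/2. Tph1 differed by -0.05 with an interval of -0.33 to 0.22. The difference between the hairpin lines was itself not tested. With DOX alone, where batch and line cannot be told apart, Ddc stood 0.26 ± 0.09 and Tph1 0.25 ± 0.20 above control in sh2 cells.

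In the ALK7 line with DOX alone, 0 of 7 members passed, 0 had an unadjusted p under 0.05 and DESeq2 called 0 (1.98% of all genes called by edgeR). The Ddc libraries lay above those of control cells by 0.18 ± 0.09 (adjusted p = 0.377). With activin B, 1 of 7 passed, beside 4.53% of all genes. Maob fell by 0.37 ± 0.06 on the log2 scale (edgeR adjusted p = 0.000258), from 404 ± 15.7 in control to 312 ± 17.2 CPM. Fitted to the 6 libraries of that comparison alone, Maob did not pass (-0.38, adjusted p = 0.0860). Tph1 at 0.34 ± 0.14 (adjusted p = 0.180), Ddc at 0.18 ± 0.08 (adjusted p = 0.217) and Slc18a1 at -0.24 ± 0.08 (adjusted p = 0.0784) had libraries without overlap but did not pass.

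In the ALK7-DN line with DOX alone, 0 of 7 members passed, 1 had an unadjusted p under 0.05 and DESeq2 called 0 (0.966% of all genes called by edgeR). That 1 was Tph1, at 0.434 ± 0.140 CPM against 0.698 ± 0.162 in control cells (-0.70 ± 0.21, adjusted p = 0.405, 95% interval -1.12 to -0.28), with overlapping libraries. This interval is narrower than counting error alone would give, and narrower than the unadjusted edgeR p of 0.0184 implies. With activin B, where batch and line cannot be told apart, Tph1 stood 0.35 ± 0.14 below control, and Slc18a1 0.26 ± 0.08 and Maob 0.18 ± 0.06 above it.

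**Figure D4:**
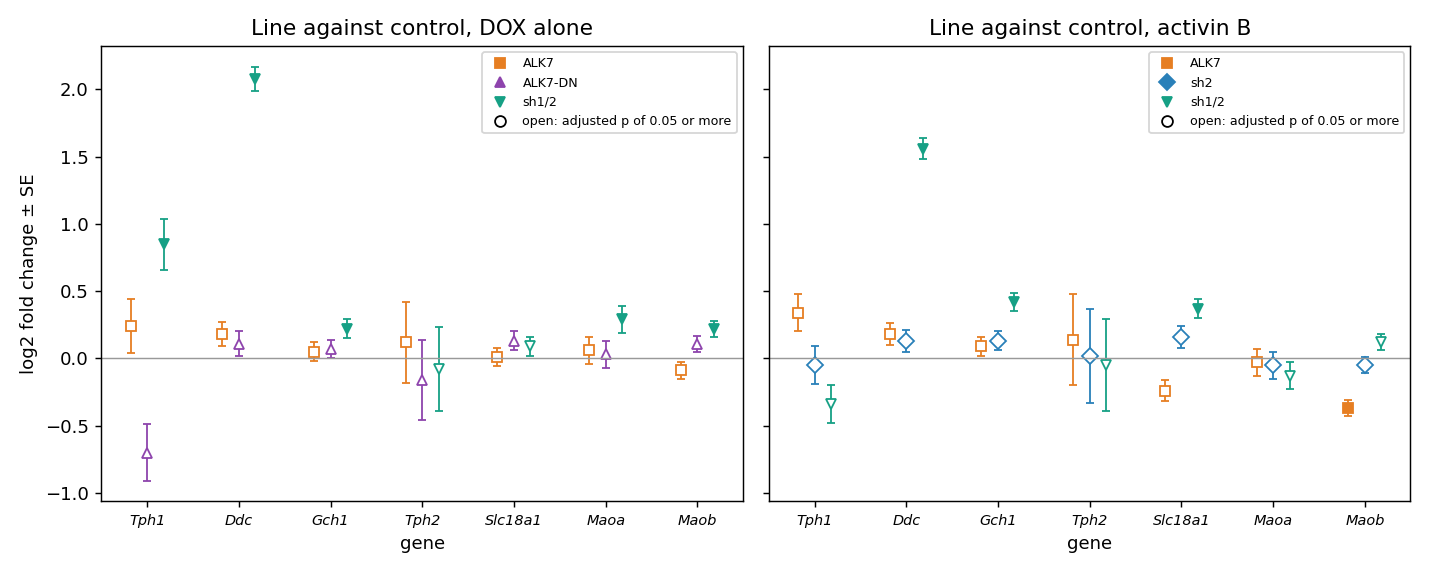
Log2 fold change of each line against control cells for 7 members, with DOX alone (left) and with activin B (right), with bars of 1 SE; filled symbols passed an edgeR adjusted p of 0.05, and comparisons in which batch and line coincide are left out. Ddc in sh1/2 cells lies at 2.08 and 1.56, and the only filled symbol of another line is Maob in ALK7 cells with activin B at -0.37.

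Whether the activin B response itself differed from that of control cells was tested as an interaction. It draws on the libraries whose responses were known when the members were chosen. In sh1/2 cells 2 of 7 members passed, beside 17.7% of all genes, and in both the response was smaller as a fold change. DESeq2 called 3, with Maoa added (-0.42, adjusted p = 0.0292). For Tph1 the difference was -1.19 ± 0.23 (edgeR adjusted p = 0.00389, 95% interval -1.65 to -0.73), a 4.21-fold response against 9.60-fold in control cells. That interval is narrower than counting error alone would give. For Ddc the difference was -0.52 ± 0.12 (adjusted p = 0.0112, interval -0.74 to -0.29), 2.63-fold against 3.77-fold. In CPM the Ddc rise was larger in sh1/2 cells, from 36.8 to 96.7, than in control cells, from 8.69 to 32.8. Neither call held in a fit to the 12 libraries of these lines alone (Tph1 -1.20, adjusted p = 0.0523; Ddc -0.52, adjusted p = 0.164). They also ended without the 3 libraries low on GC-rich genes (Tph1 -1.10, Ddc -0.44), a fit that keeps only replicate 2 of sh1/2 DOX. In this interaction the log2 fold change of all genes correlated with GC content at 0.66 (Spearman, across genes, which are not independent replicates).

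Maoa (-0.42 ± 0.15, adjusted p = 0.0501), Slc18a1 (0.28 ± 0.11, adjusted p = 0.0619) and Gch1 (0.19 ± 0.10, adjusted p = 0.165) did not pass in sh1/2 cells. With a replicate block within each line they did, at -0.40 (adjusted p = 0.0212), 0.28 (adjusted p = 0.0145) and 0.20 (adjusted p = 0.00939), but with the block and a GC correction Maoa did not. Slc18a1 passed without control activin B replicate 1 (0.33, adjusted p = 0.0271), and Maoa without control activin B replicate 1 (-0.50, adjusted p = 0.0184) or 3 (-0.48, adjusted p = 0.0421) or sh1/2 DOX replicate 2 (-0.50, adjusted p = 0.0079). In ALK7 cells 0 of 7 members passed the interaction, 2 had an unadjusted p under 0.05 (Maob and Slc18a1) and DESeq2 called 0, beside 0.0256% of all genes. Maob, at -0.29 ± 0.08 (adjusted p = 0.287), passed with the replicate block (-0.29, adjusted p = 0.0315). The Tph1 response differed from control by 0.10 in ALK7 cells, with an interval of -0.38 to 0.58, narrower than counting error would give. In ALK7-DN and sh2 cells, where batch and treatment coincide, it differed by 0.35 ± 0.25 and -0.31 ± 0.24.

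Genes around the pathway were read from 8 lists of 91 genes, of which 49 passed the low-count filter. With activin B 10 rose and 10 fell in control cells, 13 and 10 in ALK7, 11 and 8 in ALK7-DN, 9 and 8 in sh2 and 16 and 10 in sh1/2. All genes called made up 20.3%, 25.3%, 16.1%, 19.6% and 36.6% of those tested. The median log2 fold change of the 49 was -0.04 in control cells, against -0.002 over all genes. Of 7 tetrahydrobiopterin genes, Qdpr, which regenerates the cofactor, rose in all 5 lines (0.45 to 0.61, control 0.52 ± 0.05, edgeR adjusted p = 2.17e-08, from 345 to 496 CPM). Pcbd1, which acts in the same recycling path, fell in all 5 (-0.38 to -0.15, control -0.23 ± 0.04, adjusted p = 0.000151). Sepiapterin reductase, Spr, and Pcbd2 were at 0.13 ± 0.16 and -0.28 ± 0.17 in control cells and did not pass. Of 4 measured enzymes of catecholamines and other amines, 0 passed with edgeR in control, ALK7, ALK7-DN or sh2 cells, and 2 rose in sh1/2 cells, among them Th (0.53 ± 0.13, adjusted p = 0.00255). In control cells Th, which makes the dopamine precursor, was at 0.22 ± 0.12, Hdc, which makes histamine, at -0.50 ± 0.28 and Ddo, which oxidizes D-aspartate, at 0.26 ± 0.21.

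Among 5 measured transporters, the plasma membrane monoamine transporter Slc29a4 rose in all 5 lines (0.50 to 1.28, control 0.57 ± 0.15, adjusted p = 0.00872, from 116 to 172 CPM). The vesicular glutamate transporter Slc17a6 rose in all 5 as well (1.08 to 1.5), while the nucleotide transporter Slc17a9 (-1.33 ± 0.29, adjusted p = 0.00128) and the polyamine transporter Slc18b1 (-0.31 ± 0.08, adjusted p = 0.00642) fell in control cells. The serotonin reuptake transporter Slc6a4 did not pass the low-count filter. Htr1d was the only 1 of 14 serotonin receptors that passed it, at 1.957 CPM in control cells with DOX alone, and it fell in control (-0.78 ± 0.26, adjusted p = 0.0347), ALK7 (-1.20) and sh2 cells (-1.65). The dopamine receptor Drd2 rose in all 5 lines (0.38 to 0.63, control 0.45 ± 0.11, adjusted p = 0.00418). The adrenergic receptor Adra2a fell in control (-0.33 ± 0.11, adjusted p = 0.0297), ALK7-DN, sh2 and sh1/2 cells.

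Of 9 aldehyde and vitamin B6 enzymes, 2 rose and 2 fell in control cells. Aldh1a1, a retinaldehyde dehydrogenase, rose by 1.98 ± 0.24 (adjusted p = 7.35e-07) from 0.387 to 1.53 CPM, and Aldh1b1 by 0.44 ± 0.12 (adjusted p = 0.0126). Pyridoxal kinase, Pdxk, which makes the cofactor of Ddc, fell by 0.73 ± 0.10 (adjusted p = 2.98e-06), and Aldh2 fell by 0.57 ± 0.15 (adjusted p = 0.00896). For sh1/2 cells Aldh1a1 was at 0.27 ± 0.21 and its response was smaller than in control cells (interaction -1.71 ± 0.32, adjusted p = 0.00297). Of 8 measured genes of tryptophan supply and other use, 0 rose and 2 fell in control cells, Wars, the tryptophanyl-tRNA synthetase (-0.66 ± 0.10, adjusted p = 1.3e-05), and the aromatic amino acid transporter Slc16a10 (-0.25 ± 0.07, adjusted p = 0.0125). The tryptophan-degrading enzyme Tdo2 and Afmid were at -0.22 ± 0.11 and -0.26 ± 0.16 and did not pass there.

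Of 13 measured regulators and prolactin pathway genes, 4 rose and 1 fell in control cells. The growth hormone receptor Ghr rose in all 5 lines (1.01 to 1.4, control 1.4 ± 0.07, adjusted p = 1.41e-13, from 82.4 to 217 CPM), as did Cish, a STAT5 target (0.68 to 1.29, control 0.86 ± 0.16, adjusted p = 0.000298). The endocrine factor Insm1 rose in control cells by 0.45 ± 0.06 (adjusted p = 2e-06). The prolactin receptor Prlr, by contrast, fell in control (-0.48 ± 0.15, adjusted p = 0.0212) and ALK7 cells (-1.21 ± 0.15, adjusted p = 7.12e-07) and was between -0.09 and 0.11 in the other 3 lines. Several of these lists hold genes with different roles, and their counts do not describe a shared direction.

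The genes whose group means were most like those of Tph1 were found among 10929 genes with a mean above 2 CPM, by Pearson correlation of log2 CPM over the 10 group means, with a pseudocount of 0.5 CPM. They were Fgd6 and Pax4 (0.995 each), Skil (0.994), Alpl (0.993) and Slc35d2 (0.992). For Ddc they were Ptprt (0.983), March11 (0.978), Sema6d (0.975), Stau1 (0.968) and Hivep1 (0.968). Tph1 and Ddc correlated at 0.812, and Tph1 with Slc18a1 at -0.937 and with Maob at -0.921. The points share libraries and the split by treatment, so these values describe the order of the groups only.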

How the data were processed

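A stranded TruSeq mRNA kit was used on Trizol-extracted RNA, per the labels' protocols. Per the submitters' processing notes, bcl2fastq 2.17, cutadapt 1.4.2, HISAT2, featureCounts 1.4.4 and the mm10 build were used. The HISAT2 version, the strand setting and the treatment of reads that match several places are not given in the sources used here. The authors deposited read counts per gene, and 0 sample columns were left unassigned. A deposited normalized table was not used.

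Counts were tested with edgeR 4.0.16 in R 4.3.3: filterByExpr (minimum count 10), TMM, 10 group means over all 30 libraries, the quasi-likelihood F test and Benjamini-Hochberg adjustment over 15627 genes (threshold 0.05), with DESeq2 1.42.0 as an alternative. Every adjusted p is from edgeR unless another tool is named. CPM and RPKM use TMM-scaled totals and the GENCODE release vM21 exon union. Replicates differed by at least 8.25 chi-square per degree of freedom. The scripts were tested on simulated data.

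The members and lists were chosen with earlier results of these data known. The text names all 8 members, Acvr1c, the 4 genes with the smallest p of each list in control cells, and list genes above 2 CPM that passed one way in all 5 lines; Slc17a6 and, in the closing section, Fev were added after their values were seen. The result of 1 gene under this rule is not reported here. Same-numbered libraries with and without activin B deviated together in control, ALK7, sh2 and sh1/2 cells (lowest correlation 0.13), as a hint from the data. In ALK7-DN cells the correlations were 0.53, 0.05 and 0.33. The reported fit does not use this pairing. GC content was known for 98.9% of the genes tested. The alternatives were RLE size factors, DESeq2, no filter, replicate blocks, GC correction, fewer libraries and leaving out single libraries.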

Additional observations from a re-analysis of the deposited data

Results flagged for a closer look

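The response to activin B differed between lines by the interaction test for 2 members. Both had been singled out because their counts were higher with activin B, so this test draws on values used in the choice. For Tph1 the response in sh1/2 cells was smaller than in control cells by -1.19 on the log2 scale, with all 3 sh1/2 libraries above control under DOX alone and all 3 below control with activin B. For Ddc the difference was -0.52, with the sh1/2 libraries above control at both treatments. It holds for the fold change only, since the Ddc rise in CPM was larger in sh1/2 cells. Both calls ended with only these lines fitted and without the 3 libraries low on GC-rich genes. The latter fit keeps only replicate 2 of sh1/2 DOX.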

How the results depend on the processing

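Of 56 tested results for members, 39 kept their side of the threshold under all alternatives run, and 22 of 35 described responses stayed within their spread. No called result reversed, but values near 0 that did not pass, such as the Tph1 interaction in ALK7 cells (-0.11 to 0.25), changed sign under some alternatives. The members' counts moved as follows. With a replicate block across all lines, 5 members passed the sh1/2 interaction (2 without it) and 2 passed ALK7 against control with activin B (1 without it, Slc18a1 added at -0.24). Block and GC correction together gave 4 members for the sh1/2 interaction, 1 (Maob) for the ALK7 interaction, 3 for ALK7 with activin B (Maob, Slc18a1 and Tph1), and 1 (Maob) each for ALK7 and for ALK7-DN with DOX alone. The block within each line gave 1 and 5 for the ALK7 and sh1/2 interactions, and 1 and 4 with the GC correction. With only the groups compared, 0 members passed the sh1/2 interaction, 2 passed sh1/2 against control with DOX alone (5 in the reported fit) and 0 passed ALK7 with activin B. Without the 3 libraries low on GC-rich genes the sh1/2 interaction had 0 and sh1/2 with DOX alone 2; 2 other libraries, at -0.64 and -0.67, were kept. Leaving out single libraries gave 2 to 4 members for the sh1/2 interaction and 3 to 4 for sh1/2 with DOX alone. Tph1 in sh1/2 against control with activin B passed with DESeq2 (-0.35, adjusted p = 0.0176) and with the replicate block (-0.34, adjusted p = 0.0425). Across lines, same-numbered libraries deviated together in some comparisons and not in others (correlations from -0.34 to 0.47). The block was thus no better founded there. Other causes of these changes were not tested.

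Over all genes the calls moved more. With activin B they numbered 3180 in control cells (1734 to 5374 over the alternatives), 3953 in ALK7 (3176 to 6178), 2515 in ALK7-DN (1917 to 4623), 3070 in sh2 (2297 to 5561) and 5723 in sh1/2 (1476 to 8227). The interactions called 4 genes in ALK7 (0 to 448) and 2768 in sh1/2 (45 to 6983). Against control with DOX alone they numbered 310 in ALK7 (151 to 1348), 151 in ALK7-DN (25 to 563) and 5934 in sh1/2 (2430 to 7912), and with activin B 708 in ALK7 (46 to 1863), 1443 in sh2 (440 to 3345) and 5499 in sh1/2 (3820 to 7124). Depth limits Tph1 with DOX alone, Tph2 and Slc18a2, with at most 39, 22 and 7 counts per library.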

Other observations

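Other amine genes also differed between the lines. Th, whose product tyrosine hydroxylase starts dopamine synthesis, was lower than in control cells with activin B in sh2 (-0.71 ± 0.12, edgeR adjusted p = 0.000345) and in sh1/2 (-0.44 ± 0.12, adjusted p = 0.00687), and with DOX alone in sh1/2 (-0.76 ± 0.13, adjusted p = 4.24e-05). Hdc, the histamine-forming enzyme, was higher in sh1/2 with DOX alone (1.04 ± 0.25, adjusted p = 0.00217) and with activin B (1.17 ± 0.26, adjusted p = 0.000931). Qdpr was lower in sh1/2 at both treatments (-0.49 ± 0.05 and -0.41 ± 0.05). Fev, a transcription factor of serotonergic neurons, was named after its values were seen. It was higher than in control cells in sh1/2 with DOX alone (2.81 ± 0.38, adjusted p = 2.63e-06) and with activin B (3.42 ± 0.38, adjusted p = 1.58e-07) and in sh2 with activin B (2.13 ± 0.41, adjusted p = 0.00107). Its levels were low, at 0.279 and 0.189 CPM in control cells, 1.92 and 2.14 in sh1/2 and 1.05 and 0.883 in sh2 with DOX alone and with activin B. It did not pass with activin B against DOX alone in any line.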
